A study of Drosophila melanogaster with 19 samples.

Results

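Heads of the fruit fly Drosophila melanogaster whose sample titles carry the number 29 were compared with heads whose titles carry the number 18, using the mock-treated libraries only. They number 8 of the 19 libraries of the series, with 4 libraries a side. On the 29 side were 2 libraries of wild-type Canton-S flies (WT29) and 2 of flies with the C4 mutation in the Canton-S background (slow29), and on the 18 side were 2 libraries of wild-type Canton-S flies (WT18) and 2 of C4 flies (slow18). C4 is an allele of the large subunit of RNA polymerase II with slow elongation, so each side holds both genotypes, and genotype was a factor in every fit. The sources used here do not give the age or sex of the flies, the number of heads pooled or what 18 and 29 stand for, so both are treated below as title numbers. Total RNA was depleted of ribosomal RNA with Ribominus and mock treated, and the same 8 RNA samples were also digested with RNase R, an exonuclease that removes linear RNA.

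The unit of measurement is the back-splice junction. In ordinary splicing the end of an exon is joined to the start of an exon further downstream. In back-splicing it is joined to the start of the same exon or of an exon upstream, and the exons in between close into a circular RNA that has no ends. Circular RNAs are common in neural tissue of flies, they resist exonucleases, and many come from long genes of neurons, with muscleblind (mbl) as the best studied example. A read over a back-splice junction is taken to count a circle and does not measure the linear mRNA of its host gene. Some listed junctions matched no exon ends or lost most of their share after RNase R. Not every listed read can therefore be taken to count a circle.

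The 4 libraries at 29 listed 9447 back-splice reads and the 4 at 18 listed 4138, out of 4515 junctions in the tables of heads, of which 2339 had a read in a mock library. Counts are given as reads per 10000 listed back-splice reads of the library. At this depth 1 read in the smallest library is worth 12.5 such units, and a count of 0 over the 4138 reads at 18 allows up to 7.25 per 10000 (3 reads, counting error only). Some libraries stood apart from the others of their side. WT18 replicate 1 had 1577 reads against 800 to 885 in the other libraries at 18, and mbl took 14.2% of the reads of slow18 replicate 2 against 7.42% to 8.13% in the others at 18. The labelled tissue was checked against listed junctions of marker genes. Of 22 photoreceptor names 14 had mock reads, and of 10 neuron names 6 did, while elav, n-syb and the glial gene repo had none. Summed muscle markers had 377 to 727 per 10000 at 29 and 251 to 937.5 at 18, fat body markers 23.3 to 75.3 at 29 and 44.4 to 62.5 at 18, and hemocyte markers 8.86 to 18.9 at 29 and 0 to 11.4 at 18. Msp-300 made up much of the muscle sum (401 ± 158 at 29 and 309 ± 176 at 18). Of its reads 94.7% were at a single junction that matched no exon ends. In bulk heads, fewer cells of a type and less RNA per cell cannot be told apart.

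Heads at 29 gave more listed back-splice reads on average than heads at 18, spread over more junctions. WT29 libraries had 3427 and 2704 reads and slow29 libraries 1059 and 2257, against 1577 and 876 in WT18 and 800 and 885 in slow18. The ranges overlapped, because slow29 replicate 1 lay below WT18 replicate 1. Within each genotype both libraries at 29 exceeded both at 18. The mean log2 total was 11.08 ± 0.73 at 29 and 9.96 ± 0.45 at 18 (SD, n = 4 each), a difference of 1.13 or 2.18-fold, with 1.37 in WT and 0.88 in slow heads. Labels exchanged within genotype gave an exact two-sided permutation p of 0.0556, the smallest that these 36 arrangements allow, so this exchange cannot pass 0.05. With labels exchanged regardless of genotype (70 arrangements, smallest possible p 0.0286), the exact permutation p was 0.0571. Total sequencing depth is unknown, so a deeper library and a larger number of circles cannot be told apart. The RNase R libraries of the same samples had 20254 and 12548 (WT29), 11115 and 16134 (slow29), 12205 and 16714 (WT18) and 6125 and 4871 (slow18) listed reads. Their mean log2 total was 13.83 ± 0.39 at 29 and 13.11 ± 0.83 at 18.

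The mean number of junctions with reads was higher at 29, and lower when the libraries were set to equal depth. WT29 libraries had reads at 1092 and 924 junctions and slow29 libraries at 472 and 806, against 711 and 455 in WT18 and 423 and 449 in slow18. In a common number of 800 reads, 404 ± 15.8 junctions were expected at 29 and 426 ± 8.86 at 18 (SD, n = 4 each). That difference of -22.5 junctions had an exact permutation p of 0.0556 within genotype and 0.0571 regardless of genotype, and the sides overlapped in WT29 replicate 1, with 419 junctions, and slow18 replicate 2, with 417. Reads at junctions with a single read in the library made up 23.0% ± 6.03 at 29 and 35.8% ± 3.72 at 18, a share that moves with depth.

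The 10 leading junctions together took a larger mean share of the reads at 29, with the gain in the leading mbl circle. The 10 most abundant junctions took 28.3% ± 3.26 at 29 and 25% ± 3.20 at 18 (SD, n = 4 each), a difference of 3.29 percentage points. The leading mbl circle alone had 1361 ± 261 reads per 10000 at 29 and 910 ± 313 at 18, a larger gain. The mean share of the other junctions among the 10 was therefore not larger at 29. All mbl junctions together took 10.7% and 13.7% in WT29 and 16% and 16.4% in slow29, against 7.99% and 7.42% in WT18 and 8.13% and 14.2% in slow18. Within WT and within slow heads both libraries at 29 lay above both at 18, while slow18 replicate 2 lay above both WT29 libraries. The difference in the mbl share was 4.75 percentage points, 4.49 in WT and 5.02 in slow heads. Within genotype both measures had the smallest exact permutation p, 0.0556, and regardless of genotype the exact p was 0.2 for the 10 leading junctions and 0.0857 for the mbl share. Over the family of 11 measures per library the Benjamini-Hochberg adjusted p of every measure at the limit within genotype was 0.102, and regardless of genotype it was 0.157 for the log2 total, 0.189 for the mbl share and 0.314 for the 10 leading junctions. Junctions with ends over 100 kb apart took 4.80% ± 1.98 at 29 and 4.60% ± 1.42 at 18 (exact permutation p = 0.889), and single-exon circles 31.5% ± 1.64 at 29 and 28.2% ± 3.55 at 18 (exact permutation p = 0.111).

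**Figure D1:**
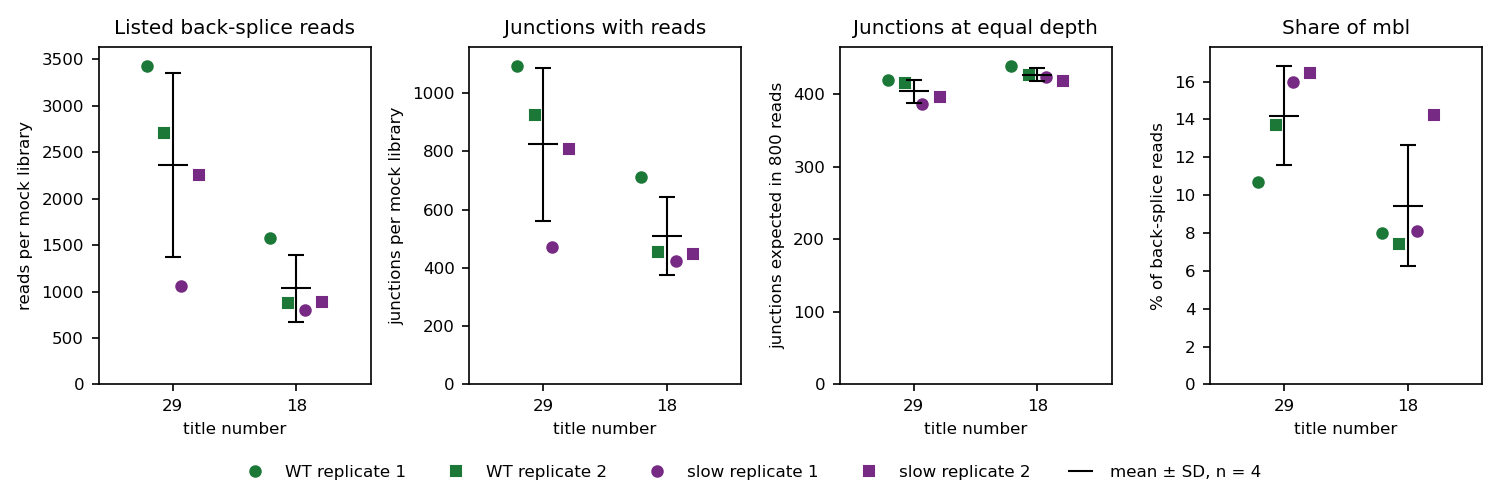
Listed back-splice reads, junctions with reads, junctions expected in 800 reads and the percentage of reads at mbl junctions (vertical axes) in the mock libraries at 29 (left) and 18 (right). Points are libraries, coloured by genotype, and bars give the mean ± SD of 4 libraries. Within each genotype both libraries at 29 lie above both at 18 in reads, in junctions and in the mbl share, and below them at equal depth.

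Among junctions with at least 10 reads, single junctions were lower and higher at 29 in about equal number. Circles of dlg1, CG42345, Bsg and ps and junctions labelled bt and CG34417 fell, and circles of mGluRA, CG31619, seq, Stim and CG40084 rose. Of 230 junctions tested with edgeR's quasi-likelihood test (at least 10 reads over the 8 libraries), 5 were higher at 29 (2.17%) and 6 lower (2.61%) at a Benjamini-Hochberg adjusted p below 0.05, 4.78% in all. The higher ones had 16 to 39 mock reads each and the lower ones 16 to 227. Of the 30 junctions tested when at least 50 reads were required, 0 were called higher and 4 lower. The tested junctions held 63.8% of mock reads, and their median log2 difference was 0.32, or 0.45 with TMM over all tested junctions. Unadjusted p was below 0.05 for 47 junctions (20.4%). The libraries at 29 lay wholly above those at 18 for 13 junctions (5.65%) and wholly below for 11 (4.78%). All positions are dm3, counted from 1, and the match to exons rests on lengths in the annotation of a later build. Log2 differences are 29 minus 18 and carry the SE that restates the edgeR test.

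The fall with the smallest adjusted p was in dlg1, which encodes Discs large, a scaffold of synapses and septate junctions. The junction X:11291858-11292855 on the plus strand spans 998 bases and runs between the ends of exons of dlg1. It had 14.6 and 7.40 reads per 10000 in WT29 and 18.9 and 35.4 in slow29, against 108 and 103 in WT18 and 112.5 and 79.1 in slow18. The highest library at 29 lay well below the lowest at 18. The means were 19.1 ± 11.9 at 29 and 101 ± 14.8 at 18 (SD, n = 4 each), and the log2 difference was -2.35 ± 0.44 (edgeR adjusted p = 2.64e-05). In raw reads this was 17 at 29 and 42 at 18, although the libraries at 29 held more reads in all.

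CG42345, now stw, encodes laccase 2, the phenol oxidase that hardens and tans cuticle. Its single-exon coding circle 2R:1311255-1311744 (490 bases, plus strand) had 181 and 92.5 reads per 10000 in WT29 and 113 and 79.8 in slow29, against 203 and 320 in WT18 and 300 and 294 in slow18. The sides did not overlap, although WT29 replicate 1 came close to WT18 replicate 1. Mean levels were 117 ± 45.0 at 29 and 279 ± 52 at 18 (log2 difference -1.12 ± 0.30, edgeR adjusted p = 0.0166).

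A junction of a muscle gene fell as well. The gene bt (bent) encodes projectin, a giant titin-like protein of muscle, and its junction 4:758362-758535 (174 bases, plus strand) matches a single coding exon. This junction had 29.2 and 40.7 reads per 10000 in WT29 and 37.8 and 93.0 in slow29, against 95.1 and 79.9 in WT18 and 187.5 and 181 in slow18. Within each genotype the sides were apart, and across genotypes slow29 replicate 2 overlapped WT18. The means were 50.2 ± 29 at 29 and 136 ± 56.2 at 18 (log2 difference -1.27 ± 0.35, edgeR adjusted p = 0.0171). After RNase R the junction had 4.16 ± 2.63 at 29 and 15.6 ± 8.14 at 18. Whether its reads come from a circle was not tested.

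The circle of Bsg, which encodes basigin, an immunoglobulin-family membrane glycoprotein, rested on few reads. Its junction 2L:8105692-8107880 (2189 bases, plus strand, exon start to exon end) had 1 and 2 reads in WT29 and 0 and 1 in slow29, against 5 and 4 in WT18 and 2 and 1 in slow18. Per 10000 reads this was 3.69 ± 3.08 at 29 and 28.4 ± 14.3 at 18, without overlap (log2 difference -2.54 ± 0.75, edgeR adjusted p = 0.0226). The single-exon circle of ps (pasilla, an RNA-binding splicing regulator) at 3R:5257751-5258561 (811 bases) had 0 and 14.8 reads per 10000 in WT29 and 0 and 26.6 in slow29, against 50.7 and 57.1 in WT18 and 25 and 22.6 in slow18. Only slow29 replicate 2 reached the range at 18. The means were 10.3 ± 12.9 at 29 and 38.9 ± 17.6 at 18 (log2 difference -1.79 ± 0.58, edgeR adjusted p = 0.0454). A junction with the same end that starts 3 bases further in, 3R:5257754-5258561, was listed apart, with 5 reads at 29 and 7 at 18.

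The junction labelled CG34417 stands apart from the other falls. Its ends, X:4256493-15005055, lie 10748563 bases apart and match no exon ends, so its host gene is uncertain. It had 2.92 and 14.8 reads per 10000 in WT29 and 56.7 and 22.2 in slow29, against 12.7 and 160 in WT18 and 50 and 67.8 in slow18. The sides overlapped, and 14 of the 26 reads at 18 came from WT18 replicate 2. The log2 difference was -1.75 ± 0.50 (edgeR adjusted p = 0.0195).

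Among the circles that rose, the one of mGluRA (now mGluR), the metabotropic glutamate receptor of the fly, had the most reads. Its junction 4:958958-959743 (786 bases, plus strand) matches a single, partly coding exon. It had 58.4 and 25.9 reads per 10000 in WT29 and 28.3 and 31.0 in slow29, against 12.7 and 0 in WT18 and 0 in each slow18 library. All libraries at 29 lay above all at 18. With 37 reads at 29 and 2 at 18, the ratio of the pooled shares was 8.10 (95% exact counting interval 2.09 to 69.4), and the edgeR adjusted p was 0.0166.

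The circles of seq and Stim had no read at 18, so both passed the filter of 10 reads through the libraries at 29 alone. So did the circles of mGluRA, CG31619 and CG40084, with 2 reads each at 18. The side at 29 held more reads, so the filter admits circles high at 29 more readily. The p-values of these circles carry that limit. The gene seq (sequoia) encodes a zinc finger transcription factor of the nervous system, and its single coding exon 2R:9068495-9070739 (2245 bases, minus strand) forms the junction. It had 23.3 and 18.5 reads per 10000 in WT29 and 9.44 and 13.3 in slow29. Against a floor of 3 reads over the 4 libraries at 18, its 17 reads at 29 make it at least 2.48-fold higher (edgeR adjusted p = 0.0230). Stim encodes the calcium sensor of the endoplasmic reticulum that opens store-operated calcium entry. Its single-exon junction X:15830832-15831064 (233 bases, minus strand) had 5.84 and 22.2 reads per 10000 in WT29 and 28.3 and 22.2 in slow29. With 16 reads at 29 it was at least 2.34-fold higher (edgeR adjusted p = 0.0238).

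A circle of CG31619 (now nolo) at 2L:21716325-21717672 (1348 bases, plus strand, exon start to exon end) had 32.1 and 44.4 reads per 10000 in WT29 and 9.44 and 39.9 in slow29, against 0 and 11.4 in WT18 and 12.5 and 0 in slow18. The low value of slow29 replicate 1, a single read, overlapped the range at 18. The pooled ratio was 7.23 (95% exact counting interval 1.85 to 62.2; edgeR adjusted p = 0.0217). CG40084, now uex, encodes a magnesium transporter of the CNNM family. Its junction 2RHet:3169315-3169621 (307 bases, minus strand), which matched no exon ends, had 29.2 and 22.2 reads per 10000 in WT29 and 28.3 and 35.4 in slow29, against 6.34 and 0 in WT18 and 12.5 and 0 in slow18. The libraries at 29 were close to each other, at 28.8 ± 5.42, and all lay above those at 18, at 4.71 ± 5.99. The pooled ratio was 5.91 (95% exact counting interval 1.49 to 51.3; edgeR adjusted p = 0.0454).

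**Figure D2:**
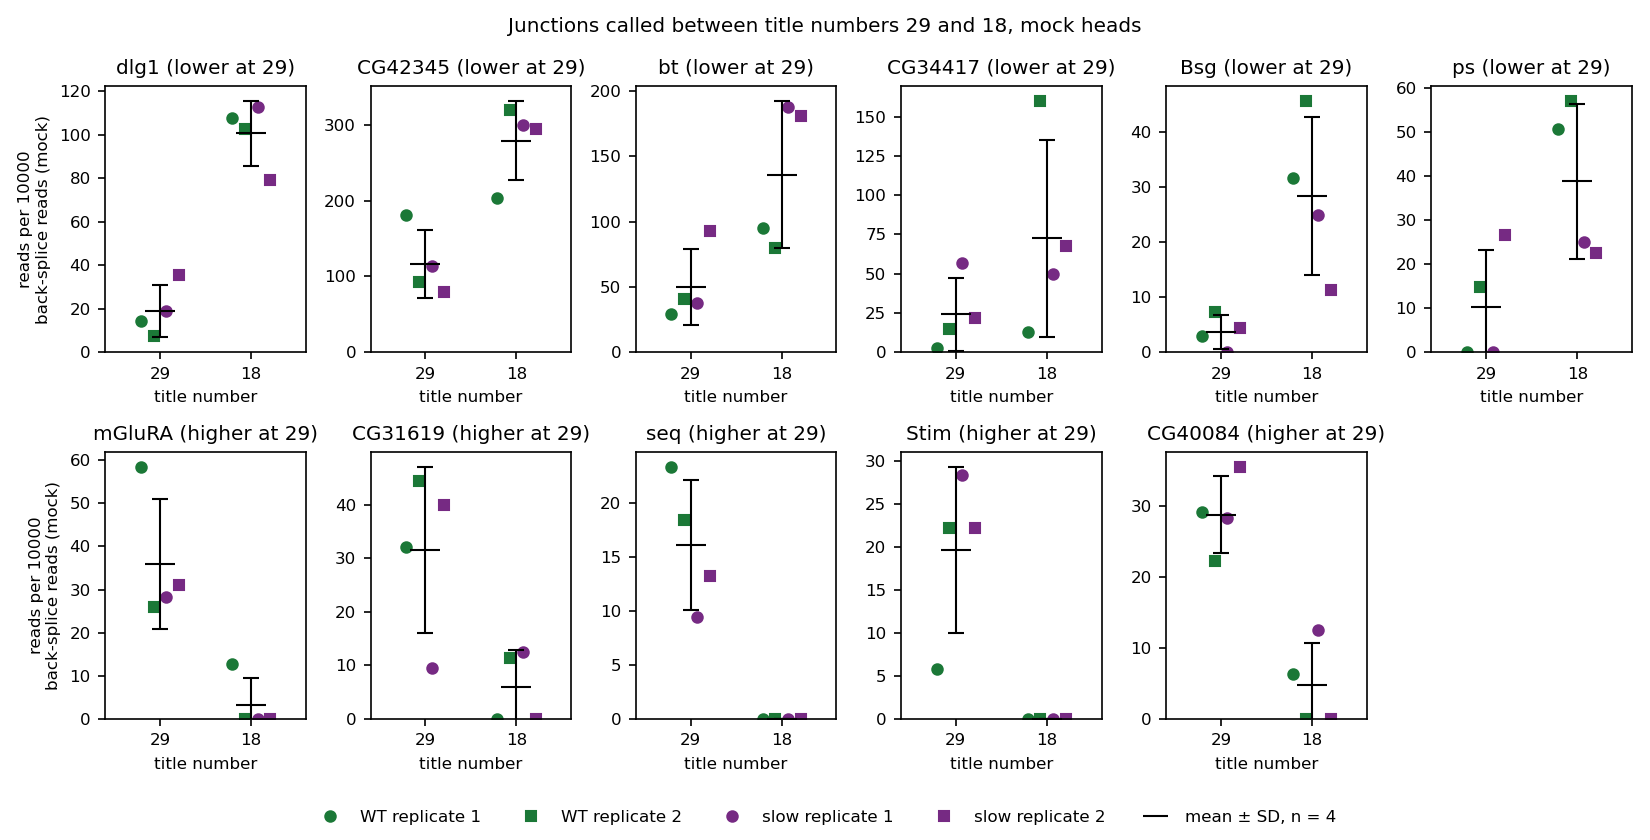
Reads per 10000 listed back-splice reads (vertical axis) for the 11 called junctions in mock libraries at 29 (left in each panel) and 18 (right). Points are libraries, coloured by genotype, and bars give the mean ± SD of 4 libraries. The dlg1 libraries at 29 (7.40 to 35.4) lie below those at 18 (79.1 to 112.5), and seq and Stim have no read at 18.

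Of these 11 calls, the fall of dlg1 held when any 1 of the 8 libraries was left out, with log2 differences from -2.83 to -2.08 and a largest edgeR adjusted p of 0.0194. The other 10 each lost the call without at least 1 library, and none changed direction. CG42345 lost it without WT29 replicate 2, slow18 replicate 2 or slow29 replicate 2 (log2 difference over all 8 omissions from -1.51 to -0.93, adjusted p up to 0.0896). The mGluRA call was lost without WT18 replicate 2, WT29 replicate 1 or slow18 replicate 2 (adjusted p up to 0.177). The calls of bt, CG34417 and CG31619 each held in 3 of 8 omissions and those of Bsg and ps in 2 of 8. The seq call held in 2 of the 7 in which the junction was tested. Those of Stim and CG40084 held in none. Leaving out WT29 replicate 1 left 2 calls, dlg1 and CG42345, and leaving out WT29 replicate 2 left 2, dlg1 and mGluRA. Of the 11 calls, 4 were left without WT18 replicate 1, WT18 replicate 2 or slow29 replicate 2, 6 without slow29 replicate 1, 9 without slow18 replicate 1 and 2 without slow18 replicate 2. New calls were CG9297 and cpo without WT18 replicate 2, CadN without slow18 replicate 1 and mbl without slow18 replicate 2. DESeq2 called 1 junction, dlg1, with 18 at an unadjusted p below 0.05.

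Most of the abundant junctions did not pass the test. Of the 15 most abundant junctions, 3 were called, all lower: CG42345, bt and dlg1. The other 12 had adjusted p from 0.101 to 0.946. The leading circle, the single mbl exon 2R:13162915-13163568 (654 bases, partly coding), which encodes part of the splicing regulator muscleblind, had 1027 and 1283 reads per 10000 in WT29 and 1539 and 1595 in slow29, against 767 and 719 in WT18 and 775 and 1379 in slow18. Slow18 replicate 2 stood within the range at 29. The means were 1361 ± 261 at 29 and 910 ± 313 at 18 (log2 difference 0.65 ± 0.26, edgeR adjusted p = 0.124). Without slow18 replicate 2 the mbl circle passed, with a log2 difference of 0.87 (edgeR adjusted p = 0.0153).

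Several abundant circles had nearly the same mean on both sides. The circle of plexA (4:1042868-1044306, 1439 bases), from the gene of the semaphorin receptor Plexin A, had 219 and 214 reads per 10000 in WT29 and 255 and 204 in slow29, against 241 and 251 in WT18 and 187.5 and 271 in slow18. Its log2 difference was -0.04 ± 0.29. The homeobox gene scro (3LHet:209156-209624, 469 bases) had 199 ± 35.5 at 29 and 210 ± 45.3 at 18, with a log2 difference of -0.05 ± 0.30. The DEAD-box helicase gene Dbp80 (3LHet:2454979-2455331) had 147 ± 19.0 at 29 and 150 ± 43.2 at 18 (0.11 ± 0.32), and CaMKI, calcium/calmodulin-dependent kinase I (4:470550-471135), 103 ± 14.4 at 29 and 103 ± 46.5 at 18 (0.09 ± 0.34). For these circles the spread between libraries was wider than the difference of the means.

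The remaining abundant junctions were less even. The exon-to-exon circle of CG40084 at 2RHet:3154309-3155516, from the same gene as the called one, had 144 ± 46.9 reads per 10000 at 29 and 117 ± 65.4 at 18, and the O-GlcNAc transferase gene Ogt (now sxc) 77.4 ± 23.5 at 29 and 65.3 ± 30.6 at 18. The circle of the kinase gene Pkn had 59.4 ± 11.7 at 29 and 56.5 ± 24.5 at 18, and that of Haspin, a histone H3 kinase, 56.3 ± 8.05 at 29 and 48.5 ± 19.1 at 18. The junction labelled Msp-300, whose ends lie 7225453 bases apart, had 350 and 233 in WT29 and 604 and 346 in slow29, against 342 and 91.3 in WT18 and 500 and 226 in slow18. Its spread between libraries was wider than the difference of the means. A junction of trp, the light-activated calcium channel of photoreceptors, matched no exon ends and had 103 ± 57.9 at 29 and 68.6 ± 35.8 at 18. CG9297 had 40.9 and 29.6 in WT29 and 47.2 and 31.0 in slow29, against 76.1 and 11.4 in WT18 and 187.5 and 67.8 in slow18. Its log2 difference of -1.05 ± 0.41 missed the threshold (edgeR adjusted p = 0.101).

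**Figure D3:**
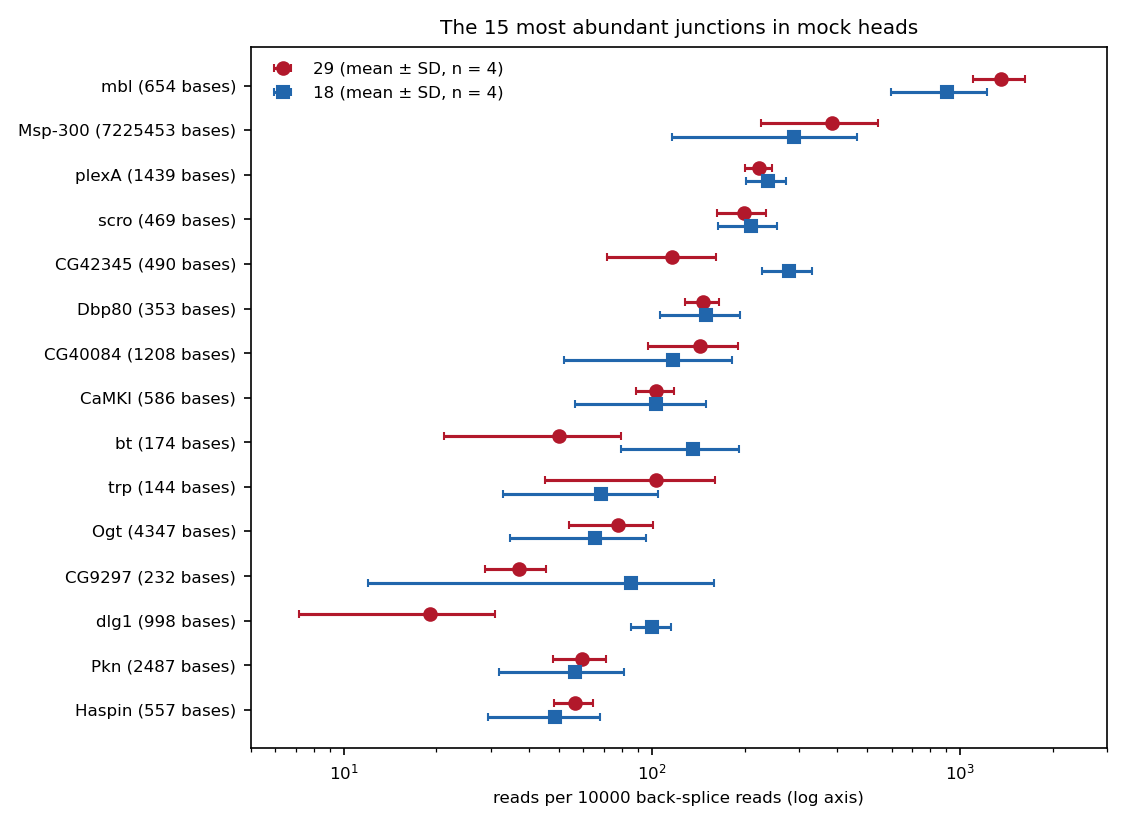
Mean reads per 10000 listed back-splice reads (horizontal log axis) of the 15 most abundant junctions, with 29 drawn above 18 in each pair. Bars are ± SD over 4 libraries, and the number beside each name is the distance between the junction's ends in bases. The bars of dlg1 (19.1 ± 11.9 at 29 and 101 ± 14.8 at 18) and CG42345 (117 ± 45.0 at 29 and 279 ± 52 at 18) are apart, and those of plexA, scro, Dbp80 and CaMKI lie over each other.

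Summing all junctions of a host gene adds depth and gave 5 called hosts. Of these, dlg1 and CG42345 were lower at 29, and mGluRA, seq and Ank2 were higher. Of 263 hosts tested, 3 rose (1.14%) and 2 fell (0.76%) by edgeR at an adjusted p below 0.05, 1.9% in all. Their median log2 difference was 0.22, and 41 hosts (15.6%) had an unadjusted p below 0.05. The libraries at 29 lay wholly above those at 18 for 9 hosts (3.42%) and wholly below for 14 (5.32%), and all 5 called hosts were among these.

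The sum over dlg1 fell, as its leading circle did. Its 9 junctions had 52.5 and 62.9 reads per 10000 in WT29 and 47.2 and 70.9 in slow29, against 171 and 205 in WT18 and 125 and 90.4 in slow18. The means were 58.4 ± 10.6 at 29 and 148 ± 50.6 at 18, a log2 difference of -1.23 ± 0.30 (edgeR adjusted p = 0.0299). The leading circle held 49.6% of the dlg1 reads. The next circle, X:11289273-11290136, had 25.5 ± 5.35 at 29 and 24.4 ± 22.6 at 18 (log2 difference -0.09 ± 0.55), and X:11275889-11277145 had 6.45 ± 4.81 at 29 and 13 ± 22.0 at 18 (-0.63 ± 0.88). Neither of these was called, and the difference between circles of dlg1 was not tested.

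Ank2, the ankyrin that anchors membrane proteins to the axonal and presynaptic skeleton, was called only as a sum. Its 5 junctions had 75.9 and 148 reads per 10000 in WT29 and 94.4 and 79.8 in slow29, against 31.7 and 34.2 in WT18 and 50 and 67.8 in slow18. Each library at 29 lay above each at 18. The means were 99.5 ± 33.3 at 29 and 45.9 ± 16.7 at 18, and the log2 difference was 1.27 ± 0.37 (edgeR adjusted p = 0.0451). The single-exon junction 3L:7655571-7655990 (420 bases, minus strand) had 24 reads at 29 and 2 at 18 (adjusted p = 0.0768), and 3L:7655571-7656424, which shares its start, had 50 and 12 (adjusted p = 0.300). The junctions share exon ends, so they are not independent.

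The sum over mGluRA rose with its single circle, which held 97.5% of its reads, and the seq sum had 28 reads at 29 and 1 at 18. Per 10000 reads the seq sum was 37.9 and 33.3 in WT29 and 18.9 and 17.7 in slow29, against 6.34 and 0 in WT18 and 0 in both slow18 libraries. Its pooled ratio was 12.3 (95% exact counting interval 2.03 to 502; edgeR adjusted p = 0.0412), and for mGluRA the adjusted p was 0.0335. Both sums passed the filter of 10 reads through the libraries at 29 alone, so these p-values carry the same limit as those of the circles. Just short of a call was Caps, the activator protein of dense-core vesicle release, with 146 ± 41.6 at 29 and 77.2 ± 25.2 at 18 (log2 difference 1.07 ± 0.32, adjusted p = 0.0603). Its 18 junctions include 5 tested ones with log2 differences from 0.41 to 1.89, none called.

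Sums of the other abundant hosts did not pass. The mbl sum was 1420 ± 262 reads per 10000 at 29 and 944 ± 321 at 18 (log2 difference 0.69 ± 0.31, edgeR adjusted p = 0.276). The bt sum was 109 ± 54.6 at 29 and 202 ± 86.9 at 18 (-0.67 ± 0.28, adjusted p = 0.233). A further bt junction, 4:757445-758535, with the same end as the called one, had 46.5 ± 25.2 at 29 and 36.4 ± 27.3 at 18. The CG40084 sum was 237 ± 53.2 at 29 and 163 ± 75.0 at 18 (adjusted p = 0.239). Hosts at even levels were plexA (224 ± 21 at 29 and 238 ± 35.7 at 18), scro (214 ± 41.3 at 29 and 233 ± 42.3 at 18), Dbp80 (166 ± 13.4 at 29 and 163 ± 41.3 at 18), CaMKI (119 ± 18.7 at 29 and 110 ± 48.4 at 18), the Wnt pathway transcription factor gene pan (104 ± 21.8 at 29 and 107 ± 25.8 at 18) and the rhodopsin gene ninaE (99.8 ± 25.8 at 29 and 98.4 ± 12.1 at 18). Host sums of Msp-300 (401 ± 158 at 29 and 309 ± 176 at 18), trp (143 ± 79.2 at 29 and 112 ± 61.7 at 18) and Parp (93.7 ± 5.86 at 29 and 86.5 ± 29.2 at 18) overlapped as well.

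Each of the 5 host calls was lost in most omissions of 1 library. That of dlg1 held in 3 of 8 omissions, those of CG42345, mGluRA and Ank2 in 2 of 8 each, and that of seq in none. Leaving out slow18 replicate 1 or slow29 replicate 1 left 0 called hosts (27 and 32 at an unadjusted p below 0.05), and leaving out WT29 replicate 2 or slow29 replicate 2 left 1 each. With WT18 replicate 2 or WT29 replicate 1 left out 3 were called, and with WT18 replicate 1 or slow18 replicate 2 left out 4. TMM over all tested hosts, which moved the median log2 difference to 0.44, gave 6 higher and 0 lower, and library totals alone (median 0.12) gave 2 higher and 5 lower, so the split of host calls into higher and lower depends on the scaling. DESeq2 called 0 hosts (13 at an unadjusted p below 0.05).

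**Figure D4:**
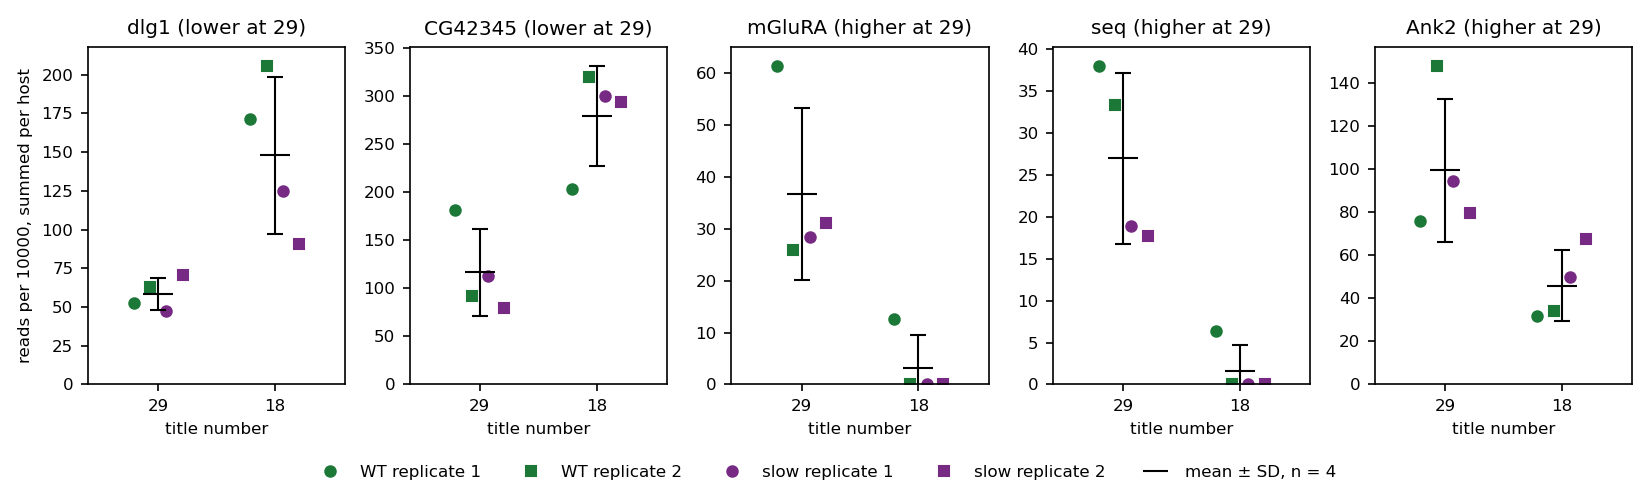
Reads per 10000 listed back-splice reads summed over all junctions of a host gene (vertical axis) for the 5 called hosts in mock libraries at 29 (left in each panel) and 18 (right). Points are libraries, coloured by genotype, and bars give the mean ± SD of 4 libraries. In every panel the 2 sets of 4 libraries do not overlap, as for Ank2 with 75.9 to 148 at 29 and 31.7 to 67.8 at 18.

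Groups of hosts were then read by function. The lists were chosen with earlier results of these data known, so their counts and medians are description only. Genes of synapse and ion channels had 27 tested hosts, of which 2 rose (mGluRA, Ank2) and 1 fell (dlg1), with a median log2 difference of 0.52 beside 0.22 over all hosts. Over all 263 hosts 1.14% rose and 0.76% fell, 1.9% in all. Named members without a call were the active zone gene brp (19.8 ± 5.94 reads per 10000 at 29 and 6.25 ± 12.5 at 18), the calcium-activated potassium channel gene slo (36 ± 25.8 at 29 and 6.34 ± 12.7 at 18), the serotonin receptor gene 5-HT2 (40.6 ± 13.2 at 29 and 71.6 ± 24.1 at 18) and the sodium channel gene para (23.1 ± 8.03 at 29 and 35.3 ± 14.8 at 18). The summed level of the list was 856 ± 92.1 at 29 and 752 ± 12.4 at 18.

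RNA binding and splicing genes had 0 of 12 hosts called, beside 1.9% of all hosts, so that this count says nothing about the group. Their median was 0.04, and 1 of their 12 junctions, the ps circle, was called, beside 4.78% of all junctions. The ps sum was 42.3 ± 13.1 at 29 and 72.8 ± 8.28 at 18 (log2 difference -0.62 ± 0.37, edgeR adjusted p = 0.468), and the bruno-type gene aret had 16.1 ± 13.1 at 29 and 5.98 ± 6.92 at 18. Calcium signalling genes had 0 of 5 hosts called (median 0.25), and 1 of their 6 junctions, Stim, rose, beside 2.17% of all junctions. The Stim host sum, the same 16 reads, had an adjusted p of 0.0659 among hosts. The calmodulin gene Cam had 19.7 ± 7.29 at 29 and 39.1 ± 12.1 at 18 without a call.

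Axon guidance and adhesion genes had 0 of 9 hosts called (median 0.00), beside 1.9% of all hosts, and 1 of their 8 junctions, Bsg, fell, beside 2.61% of all junctions. Transcription and chromatin genes had 7 hosts, of which 1, seq, rose (median 0.07), beside 1.14% of all hosts. Insulin and stress genes had 0 of 3 called (median -1.01), with the hypoxia factor gene sima at 10.3 ± 7.75 at 29 and 36.9 ± 22.5 at 18 (adjusted p = 0.299). From the cuticle list CG42345 was the only tested host, and it fell. From the list of clock and thermal response genes, sgg, which encodes the kinase Shaggy, was the only tested host (10.8 ± 4.67 at 29 and 11.3 ± 16 at 18, not called), and the core clock genes per, Clk, cyc and cry had no mock reads.

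Markers of cell types gave 0 called hosts, beside 1.9% of all hosts, too low a share for this count to tell the markers from other hosts. Photoreceptor hosts (4) had a median log2 difference of 0.62, neuron hosts (6) 0.65, muscle hosts (6) -0.13 and fat body hosts (3) 0.15, and no glial or hemocyte host was tested. Summed photoreceptor markers were 326 ± 92.9 reads per 10000 at 29 and 272 ± 49.9 at 18, neuron markers 86.7 ± 14.9 at 29 and 80.3 ± 14.6 at 18, muscle markers 557 ± 151 at 29 and 578 ± 281 at 18, and glial markers 8.94 ± 6.99 at 29 and 2.85 ± 5.71 at 18. Much of the photoreceptor sum came from trp (143 at 29 and 112 at 18) and ninaE (99.8 and 98.4). Their tested junctions matched no exon ends. Of 7 muscle junctions 1, that of bt, fell, beside 2.61% of all junctions. The myosin light chain gene Mlc2 had 3.84 ± 5.5 at 29 and 19.5 ± 5.93 at 18 and the myosin heavy chain gene Mhc 16.9 ± 12.4 at 29 and 19.8 ± 15.4 at 18, neither called. The part of muscle in the fall of the bt junction was not tested.

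The called junctions that could be fitted in each genotype alone had the same direction in both, and their size was not shown to differ. They were called in a fit to these same libraries, so the shared direction is no separate support. The junctions of Bsg, seq and Stim had too few reads to be tested in slow heads alone. In WT heads alone (150 junctions tested) dlg1 was the only call, at -3.05 (edgeR adjusted p = 0.00109), and in slow heads alone (65 tested) it was at -1.58 (adjusted p = 0.199) among 0 calls, with 9 at an unadjusted p below 0.05. CG42345 was at -0.76 in WT and -1.59 in slow heads, bt at -1.26 in each, CG34417 at -2.85 and -0.69, ps at -2.81 and -0.35, mGluRA at 2.44 and 4.98, CG31619 at 3.13 and 2.18 and CG40084 at 2.61 and 2.35. The mGluRA circle had no reads in slow18, so its value there depends on the fit. The interaction of genotype with title number was called for 0 of 230 junctions (0%) by edgeR and for 0 by DESeq2, with 6 (2.61%) and 0 at an unadjusted p below 0.05.

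Junctions with the smallest interaction p rested on few reads. CadN, the N-cadherin gene, at 2L:17737964-17739713 had 12 and 6 reads in WT29 and 0 in each slow29 library, against 0 in each WT18 library and 1 and 0 in slow18. Junctions of Dbp80 (3LHet:2423418-2423807), the serotonin receptor gene 5-HT2 (3R:448231-449346) and CG34377 (3R:18140382-18141521) had no reads in slow18, with 5, 6 and 7 reads in WT18. The junction labelled Asph (2R:6134035-12000035), which matched no exon ends, had no reads in slow29, with 5 in WT29. All 5 had an edgeR adjusted p of 0.895 for the interaction.

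Libraries at 29 lay wholly above those at 18 for 13 of the 230 tested junctions (5.65%) and wholly below for 11 (4.78%), called ones included. Some of those above had no call and are given here, while uncalled ones below are not. Those given here were chosen after their values were seen. The aret circle 2L:12240868-12241780 had 12 reads at 29 and 0 at 18, at least 1.75-fold higher (edgeR adjusted p = 0.0768). The complexin gene cpx, a regulator of vesicle fusion, had 16 reads at 29 and 1 at 18 at 3R:108396-121422 (adjusted p = 0.123). The aret and cpx junctions passed the filter of 10 reads through the libraries at 29 alone, which limits their p-values. The Parp circle 3RHet:1964215-1964748 had 51.5 ± 5.71 reads per 10000 at 29 and 22.1 ± 9.12 at 18 (adjusted p = 0.134). A further Parp circle, 3RHet:2018688-2019257, overlapped, with 36.3 ± 6.86 at 29 and 54.0 ± 24.2 at 18 (adjusted p = 0.570).

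Called junctions came from exons, distances and chromosomes as follows, with no test of the shares. Of the 11, 6 matched a single exon, 3 an exon start to an exon end and 2 no exon ends, while among all 230 tested these were 46, 136 and 38. For the other 10, those of Caps among them, no gene of the later annotation was matched by name. Called junctions numbered 3 on X, 2 on chromosome 4 and 1 on heterochromatic sequence, against 25, 33 and 22 of all tested. Their median distance between ends was 786 bases for those higher and 904.5 for those lower, against 1199.5 over all tested. The median number of mock reads was 29 for those higher and 50.5 for those lower, against 18 over all tested.

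The same junctions were read in the RNase R libraries, whose counts are larger. These come from the same 8 RNA samples and are no second set of flies. In RNase R libraries 69 of 1221 junctions were higher at 29 (5.65%) and 110 lower (9.01%) by edgeR, with a median log2 difference of -0.15. The dlg1 circle had 27.2 ± 7.67 reads per 10000 at 29 and 109 ± 9.97 at 18, with a log2 difference of -2.12 ± 0.20 in RNase R beside -2.35 ± 0.44 in mock. CG42345 had 177 ± 30.4 at 29 and 466 ± 83.8 at 18 (-1.44 ± 0.16 in RNase R, -1.12 ± 0.30 in mock), and Bsg 3.96 ± 1.13 at 29 and 36.8 ± 13.3 at 18 (-3.33 ± 0.32 and -2.54 ± 0.75). For ps the log2 difference was -1.05 ± 0.27 in RNase R beside -1.79 ± 0.58 in mock. Levels of bt were lower after RNase R on both sides, with 4.16 ± 2.63 at 29 and 15.6 ± 8.14 at 18 (-1.89 ± 0.40).

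Each circle that rose in mock had reads at 18 in the RNase R libraries. The mGluRA circle had 28.9 ± 5.58 reads per 10000 at 29 and 6.45 ± 3.10 at 18 (2.02 ± 0.31). Stim had 46.5 ± 13.9 at 29 and 12.4 ± 2.14 at 18 (1.76 ± 0.26), CG31619 25.2 ± 3.91 at 29 and 10.3 ± 2.64 at 18 (1.15 ± 0.29) and CG40084 46.8 ± 9.91 at 29 and 22.1 ± 4.75 at 18 (1.09 ± 0.24). The seq circle had 14 ± 8.06 at 29 and 7.03 ± 2.66 at 18, a log2 difference of 0.92 ± 0.37 that missed the threshold there (edgeR adjusted p = 0.0772). The junction labelled CG34417 had 1.04 ± 1.5 at 29 and 0.87 ± 0.86 at 18 in RNase R and was not tested there.

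Among the abundant circles not called in mock, mbl passed in RNase R libraries, with 1658 ± 450 reads per 10000 at 29 and 1136 ± 208 at 18 (log2 difference 0.44 ± 0.15, edgeR adjusted p = 0.0291), and Haspin had 60.2 ± 11.6 at 29 and 34.7 ± 9.43 at 18 (0.76 ± 0.21, adjusted p = 0.00457). The circles of plexA (-0.03 ± 0.18) and scro (-0.08 ± 0.16) were not called there either. After RNase R the trp junction was at 1.76 ± 1.67 at 29 and 4.39 ± 3.80 at 18, and the one labelled Msp-300 at 8.86 ± 2.97 at 29 and 15.6 ± 10.8 at 18. There the CG9297 junction was at 1.15 ± 0.98 at 29 and 1.02 ± 0.85 at 18. The ninaE host sum was at 2.97 ± 1.67 at 29 and 3.42 ± 4.63 at 18. Whether the reads of these junctions come from circles was not tested. Of the called hosts, Ank2 had 103 ± 16.5 at 29 and 40.4 ± 9.44 at 18 in RNase R (log2 difference 1.32 ± 0.18), and Caps, not called in mock, 121 ± 15.9 at 29 and 57.8 ± 4.15 at 18 (1.03 ± 0.17). Per host, 46 of 828 were higher (5.56%) and 79 lower (9.54%) in RNase R libraries.

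**Figure D5:**
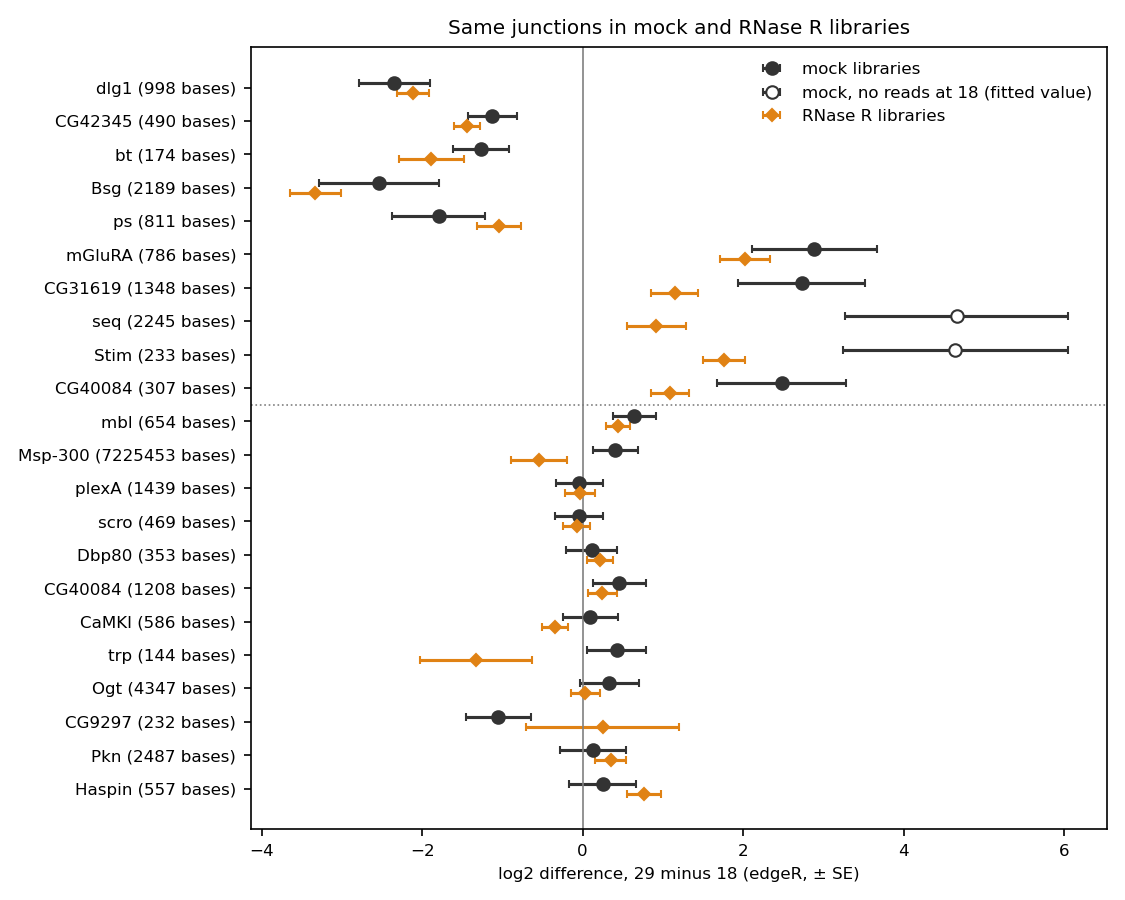
Log2 difference of 29 minus 18 (horizontal axis, edgeR, ± SE) in mock and RNase R libraries of the same 8 RNA samples, for the called junctions tested in both (above the dotted line) and the other abundant junctions (below it). Open circles have no reads at 18 in mock, so their fitted value depends on the fit and is no fold change. The falls of dlg1 (-2.35 in mock, -2.12 in RNase R) and CG42345 (-1.12 and -1.44) have the same sign in both kinds of library.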

How the data were processed

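The values are counts: the authors deposited, for each replicate of the heads, a table of back-splice junctions with whole-number read counts per library. The submitters' processing notes name CASAVA, Bowtie and the dm3 genome build, without versions. The sources used here do not say how junctions were found or which minimum they had to pass. The total number of sequenced reads is unknown, so library sizes are the sums of listed back-splice reads. Intervals and floors cover counting error only.

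Junctions listed in both replicate tables (2223 of 4515, holding 91.8% of mock reads) with at least 10 reads over the 8 mock libraries and reads in at least 2 were tested with edgeR 4.0.16 and limma 3.58.1 in R 4.3.3. The quasi-likelihood test used genotype and title number as factors, TMM factors from the 100 most abundant tested features, and Benjamini-Hochberg adjustment with a threshold of 0.05. Host-gene sums used all junctions that carry a gene name (140 junctions with 1.89% of mock reads carry none). Of 1139 hosts with mock reads, 1106 matched a current symbol. Values per library were compared by exact two-sided permutation within genotype. DESeq2 1.42.0, other scaling, filters, single genotypes, a replicate block and leaving out each library were alternatives, and scripts were tested on simulated data.

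Exon matches rest on length alone, because no dm3 annotation was used here. Named by rule are all called junctions and hosts, the 15 most abundant of each and the 5 junctions with the smallest interaction p. Called members of gene lists fall under the rule too. Some hosts and junctions outside it, such as uncalled members of gene lists, are given as well. Members and gene lists were chosen with earlier results of these data known. No label says that the replicates are different flies. The spread behind every p-value is therefore that between samples and may be technical.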

Additional observations from a re-analysis of the deposited data

Results flagged for a closer look

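In 12 of 94 groups of 4 libraries checked, 1 library lay further from its neighbours than Dixon's limit for the gap over the range. For independent, normally spread values that limit passes about 1 in 20 by chance. The groups here share reads, as the mbl circle and the mbl sum do. A group with reads in a single library always passes the limit. The 12 groups can therefore not be set against that rate. The bt sum of 190.5 reads per 10000 in slow29 replicate 2 stood above 75.5 to 92.5 in the other libraries at 29, and the Parp sum of 85.0 in slow29 replicate 1 stood below 96.2 to 97.5. At 29 the mGluRA circle had 58.4 in WT29 replicate 1 against 25.9 to 31.0 in the others, and the mGluRA sum 61.3 against 25.9 to 31.0.

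Among the libraries at 18, slow18 replicate 2 had 14.2% of its reads at mbl against 7.42% to 8.13%, with 1379 reads per 10000 at the leading mbl circle against 719 to 775 and 1424 over all mbl junctions against 742 to 812.5. WT18 replicate 1 had 1577 listed reads against 800 to 885 and 711 junctions with reads against 423 to 455. It was also the only library at 18 with reads of the mGluRA circle (12.7 reads per 10000, and 12.7 for the mGluRA sum) and of any seq junction (6.34). The part of its larger number of reads in these values was not tested.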

How the results depend on the processing

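Of 898 values of named junctions and hosts under the alternatives, 689 kept direction and side of the threshold, 150 lost the call and 12 gained it. Another 47 changed sign without a call under either setting, and no called value reversed. Junction calls (11) became 4 of 30 with at least 50 reads (0 higher and 4 lower) and 1 with DESeq2. They became 1 without the filter, 1 in WT libraries and 0 in slow libraries alone. Host calls (5) became 9 with at least 50 reads, 0 with DESeq2, 0 without the filter (54 at an unadjusted p below 0.05), 1 in WT and 0 in slow libraries alone (6 unadjusted), and 10 with factors from the 100 hosts with most summed reads, an alternative added after the data were seen. The cause was not tested. Leaving out 1 library gave 2 to 10 called junctions, 0 to 4 called hosts and 0 to 0 interactions. It gave differences of 0.85 to 1.40 in log2 total, 3.23 to 6.28 percentage points in the mbl share, 2.35 to 4.23 in the share of the 10 leading junctions and -15 to -10.5 in reads at junctions with 1 read. The share over 100 kb ranged from -0.639 to 1.04 and changed sign without WT18 replicate 2 (-0.188), WT29 replicate 1 (-0.0766), slow18 replicate 2 (-0.381) and slow29 replicate 1 (-0.639). Deviations of same-numbered libraries correlated at -0.0472 to 0.215 over 230 junctions, above 0.1 in 3 of 6 pairs of groups and not in all, so the numbers were not taken as pairing the libraries. With a replicate block 10 junctions were called, all among the 11, and 8 hosts against 5 without it, which added Caps, CG34417 and cpo. At this depth most junctions have too few reads to be tested.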
